A study of Mus musculus with 19 samples.

Results

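The effect of deleting Tet2 in T cells was compared between CD8 and CD4 T cells that had infiltrated the same kind of tumour. The quantity followed is the difference between 2 differences: Cd4CreTet2KO minus Tet2fl/fl in CD8 T cells, minus Cd4CreTet2KO minus Tet2fl/fl in CD4 T cells, each on the log2(RPKM + 1) scale, where RPKM is a read density, normalized by the authors for gene length and library depth. It is called the interaction here, and a negative value means that the knockout effect was lower in CD8 than in CD4 cells. It used 13 of the 19 RNA sequencing libraries of the series: 4 CD8 Cd4CreTet2KO, 3 CD8 Tet2fl/fl, 3 CD4 Cd4CreTet2KO and 3 CD4 Tet2fl/fl libraries. The other 6 libraries came from a Cre line active across blood cells (Vav1CreTet2KO) and enter only where named.

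The T cells were sorted by flow cytometry on CD45, CD3ε, CD4 and CD8α from liver metastases. In every group these had been seeded by injecting Venus-AKTPM/LOH cells, a colorectal cancer line, into the spleen, and they were taken 30 days later. Every mouse carried floxed Tet2 alleles, in which a part of the gene is flanked by sites that Cre recombinase cuts out. Tet2fl/fl mice, the control, carry them with no Cre named in the labels. Cd4CreTet2KO mice also carry Cre under the Cd4 promoter, which is active in thymic precursors of both lineages, so the deletion is designed to cover CD8 as well as CD4 T cells, while tumour, stroma and most other leukocytes keep Tet2. In all, 8 animals were used, and CD8 and CD4 libraries were both made from 5 of them, 2 Cd4CreTet2KO and 3 Tet2fl/fl animals. Replicates were therefore separate animals within a cell type, and each library held RNA of many cells, so that fewer cells of a kind and less RNA per cell cannot be told apart in any result below.

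TET2 oxidises methylated cytosine at CpG dinucleotides, the first step of active DNA demethylation, and CpG methylation near a promoter usually goes with a silent gene. CD8 T cells that meet tumour antigen for long become exhausted: they express the transcription factor TOX and inhibitory receptors such as PD-1 (Pdcd1), and lose the TCF-1 (Tcf7) programme of naive and memory cells. CD4 T cells in tumours are helper cells and FOXP3-positive regulatory cells, and the regulatory cells carry high levels of TNF receptor family members such as OX40 (Tnfrsf4).

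Promoter sequences are shown for 3 genes with a called interaction, as examples from the groups described below: an inhibitory receptor and a killing protein whose knockout effect was lower in CD8 cells, and a surface peptidase whose effect was higher. Each is the 200 bases upstream of the RefSeq gene start on GRCm38.p6, 5′ to 3′ on the gene's strand, with each CpG dinucleotide (CG, which reads the same on both strands) in capitals.
Pdcd1, chr1:94052554-94052753, minus strand: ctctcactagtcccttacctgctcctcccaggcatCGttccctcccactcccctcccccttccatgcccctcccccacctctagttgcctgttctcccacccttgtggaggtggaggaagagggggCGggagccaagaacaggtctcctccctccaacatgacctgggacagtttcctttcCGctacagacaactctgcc
Prf1, chr10:61297636-61297835, plus strand: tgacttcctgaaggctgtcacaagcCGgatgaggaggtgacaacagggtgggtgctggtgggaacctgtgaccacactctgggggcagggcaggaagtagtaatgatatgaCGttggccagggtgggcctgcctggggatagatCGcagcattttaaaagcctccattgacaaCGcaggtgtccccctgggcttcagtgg
Dpp4, chr2:62412232-62412431, minus strand: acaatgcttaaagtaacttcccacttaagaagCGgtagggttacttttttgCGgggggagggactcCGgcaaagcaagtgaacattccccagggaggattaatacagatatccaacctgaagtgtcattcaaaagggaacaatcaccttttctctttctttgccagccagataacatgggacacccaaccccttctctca
The Pdcd1 and Dpp4 windows hold 3 CpG each and the Prf1 window holds 4. Of the 8155 tested genes with a RefSeq entry, 98.7% hold at least 1 CpG in this window, 9.3% hold 3 or fewer and 12.0% hold 4 or fewer. Methylation was not measured in these libraries, and only 32 of the 52 called genes have an entry, too few for a comparison of CpG content over the set. Those 32 windows hold 0 to 41 CpG, so the 3 shown do not stand for the called genes in CpG content.

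Reads on genes numbered 8189300 to 20327809 in the CD8 libraries and 9096532 to 17575534 in the CD4 libraries. Among the CD8 Cd4CreTet2KO libraries, replicates 1 and 2 stood apart most. Of 18 macrophage and monocyte markers, 18, 16, 1 and 3 lay above every CD8 Tet2fl/fl library in replicates 1 to 4, and their summed level was 591, 307, 48.9 and 58.5 RPKM, against 48.6 to 85.7 RPKM in CD8 Tet2fl/fl libraries. In CD4 cells that sum was 56.0 to 115 RPKM in Cd4CreTet2KO and 84.4 to 194 RPKM in Tet2fl/fl libraries. The sum of 11 neutrophil markers was 108, 66.1, 1.49 and 0.492 RPKM in CD8 Cd4CreTet2KO replicates 1 to 4 and at most 3.94 RPKM in each of the other groups, and 0, 0, 6 and 3 of the macrophage markers were at 0 in replicates 1 to 4, against 3 to 6 in CD8 Tet2fl/fl libraries. The 12 T cell identity genes summed to 785, 849, 1170 and 1010 RPKM in CD8 Cd4CreTet2KO and to 1080 to 1450 RPKM in CD8 Tet2fl/fl libraries, with none at 0 in any library. In CD4 cells they summed to 865 to 1160 RPKM in Cd4CreTet2KO and 1110 to 1320 RPKM in Tet2fl/fl libraries. Their median knockout effect was -0.32 in CD8 and -0.298 in CD4 cells. Cd4 was at 7.68, 2.27, 0 and 0.0158 RPKM in CD8 Cd4CreTet2KO replicates 1 to 4, at 0 in CD8 Tet2fl/fl libraries and at 84.8 to 114 RPKM in CD4 libraries. Cd8a was at 99.9 to 230 RPKM in CD8 and at most 0.792 RPKM in CD4 libraries, so the sorted lineages match their labels. Replicates 3 and 4 were not free of such differences: of 10 MHC class II genes, 10, 10, 2 and 10 lay above every CD8 control in replicates 1 to 4, of 13 dendritic cell markers 13, 11, 6 and 9, and of 11 B cell and plasma cell markers 10, 11, 5 and 5. The dendritic cell sum was 451, 176, 77.2 and 124 RPKM, against 43.7 to 95.4 RPKM in CD8 Tet2fl/fl libraries, and the B cell sum 264, 133, 22.7 and 64.7 RPKM, against 5.66 to 62.7 RPKM. In CD4 cells the B cell sum was 43.5 to 68.8 RPKM in Cd4CreTet2KO and 38.3 to 200 RPKM in Tet2fl/fl libraries. Counts of genes and many, not all, of the genes described in detail are also given without CD8 Cd4CreTet2KO replicates 1 and 2, which leaves the markers of replicate 4 in place. The part of those other cell types was not tested beyond that.

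**Figure D1:**
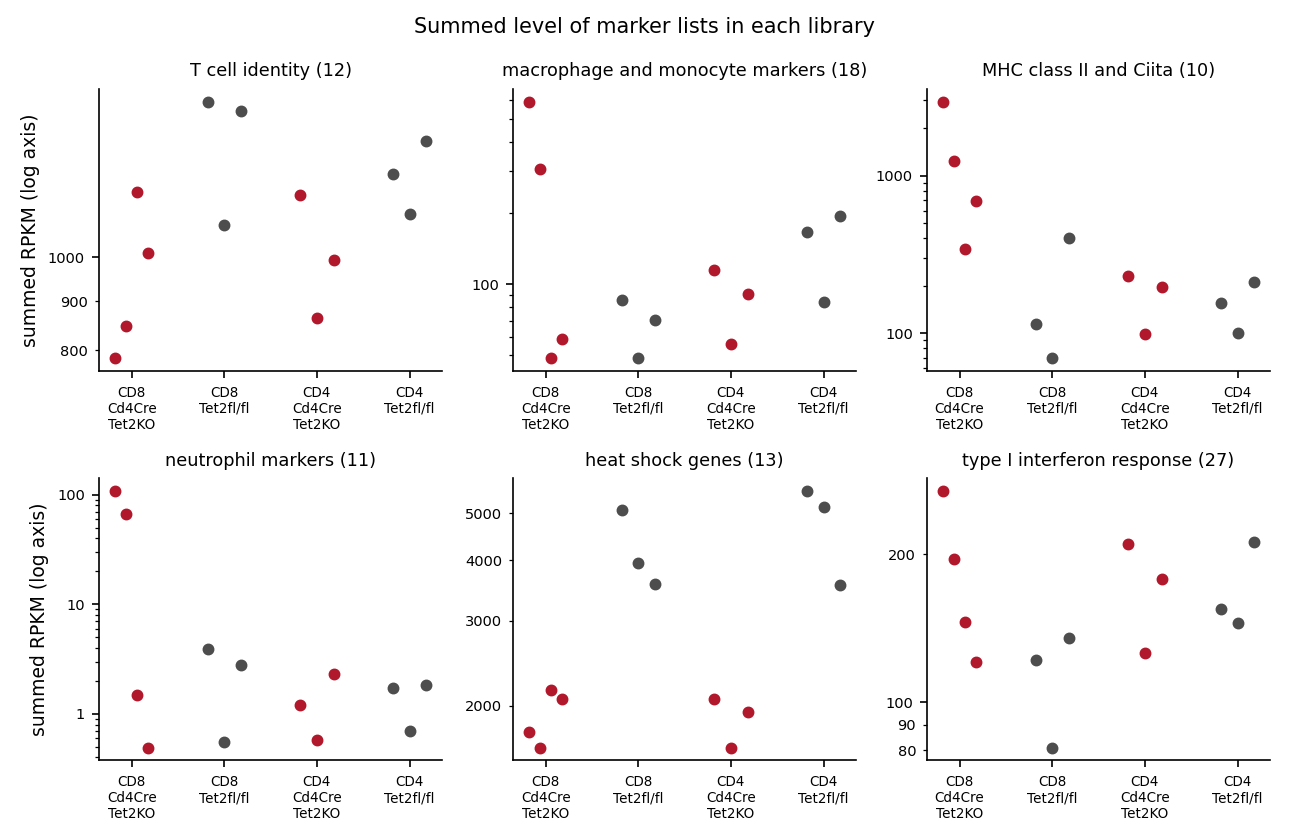
Summed RPKM of 6 gene lists (number of genes in brackets) in each library on a log axis, by cell type and genotype; 1 point is 1 library, red for Cd4CreTet2KO and grey for Tet2fl/fl, with replicates from left to right. Macrophage and neutrophil markers are high in CD8 Cd4CreTet2KO replicates 1 and 2, MHC class II genes lie above 2 of the 3 controls in all 4 of these libraries, and heat shock genes are lower in Cd4CreTet2KO libraries of both cell types.

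Tet2 itself gave no called interaction. Tet2 was at 7.57, 4.40, 3.02 and 5.02 RPKM in CD8 Cd4CreTet2KO, against 7.65, 8.06 and 6.57 RPKM in CD8 Tet2fl/fl libraries. In CD4 cells it was at 4.53, 7.28 and 4.80 RPKM in Cd4CreTet2KO, against 4.23, 7.02 and 3.87 RPKM in Tet2fl/fl libraries. CD8 knockout replicates 2 to 4 lay below the CD8 controls and replicate 1 lay among them, and the CD4 groups overlapped. The interaction was -0.67 ± 0.39 (SE), with an unadjusted p of 0.106 and an adjusted p of 0.526 in limma. Whole-gene RPKM includes exons outside the floxed part, so it does not check the deletion.

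Of 10653 genes tested, 52 had a different knockout effect in CD8 than in CD4 cells at an adjusted p under 0.05 (limma, Benjamini-Hochberg over all genes tested), which is 0.488% of them. The CD8 effect was the lower one for 44 of these genes (0.413% of genes tested) and the higher one for 8 (0.0751%). At an unadjusted p under 0.05, 858 genes (8.05%) had the lower and 454 (4.26%) the higher effect in CD8 cells. The median interaction of all genes tested was -0.09, and 57.5% lay below 0. Dividing RPKM by size factors moved that median to 0.01, and 39 lower and 8 higher genes were then called. The share of called genes with the lower CD8 effect was 84.6%, against 66.7% of 81 genes called by edgeR and 46.3% of 389 called by DESeq2 on reads. Leaving out CD8 Cd4CreTet2KO replicates 1 to 4 in turn gave 86, 24, 28 and 89 called genes, and leaving out CD8 Tet2fl/fl replicates 1 to 3 gave 6, 32 and 17. Leaving out CD4 Cd4CreTet2KO replicates 1 to 3 gave 13, 6 and 7, and leaving out CD4 Tet2fl/fl replicates 1 to 3 gave 44, 37 and 17. Without CD8 Cd4CreTet2KO replicates 1 and 2 together it was 17 (14 lower and 3 higher). With animal as a random block it was 74 and held all 52 genes, and the genes with a higher CD8 effect numbered 15 in place of 8. With animal as a fixed term, in the 10 libraries of the 5 animals with both cell types, 31 genes were called and 41 of the 52 lost the call. In the fits without 1 library, 47 of the 52 genes had a value in all 13 fits and 5 had one in 10, and the sign held wherever there was a value. Nrn1, Ccdc184, Ablim3, the unnamed model Gm5148 and Rps18-ps6, a pseudogene by its name, stayed under the threshold in all 13. Gh did so in the 10 where it passed the filter, not in those without a CD4 Cd4CreTet2KO library.

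The 44 genes mostly had a lower level in the CD8 knockout cells and not in the CD4 knockout cells. The libraries compared here also chose the 44 and the 8 genes. Separation of the genotypes is therefore in part built in, and the shares beside it are a description, not a test. The CD8 effect was below 0 for 43 of them, and in 41 every CD8 Cd4CreTet2KO library lay below every CD8 Tet2fl/fl library, against 13.8% of all genes tested. The CD4 effect was above 0 for 39 of the 44, but it lay within 0.5 of 0 for 20. In CD4 cells every Cd4CreTet2KO library lay above every Tet2fl/fl library for 26 of the 44 (4.82% of all genes tested), the groups overlapped for 17, and all knockout libraries lay below for 1 (8.90% of all genes tested). The control mean was higher in CD8 than in CD4 cells for 40 of the 44, and the Cd4CreTet2KO mean for 13. The shares over all genes tested were not computed, and the authors normalized the CD8 and CD4 tables separately. A negative interaction also favours such a change, so these counts are not read as a trait of the genes. For the 8 genes with a higher CD8 effect, the CD8 effect was above 0 and the CD4 effect below 0 in each case. Without overlap, the CD8 knockout libraries lay above their controls in 4 of these 8, against 3.70% of genes tested, and the CD4 knockout libraries below theirs in 6.

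**Figure D2:**
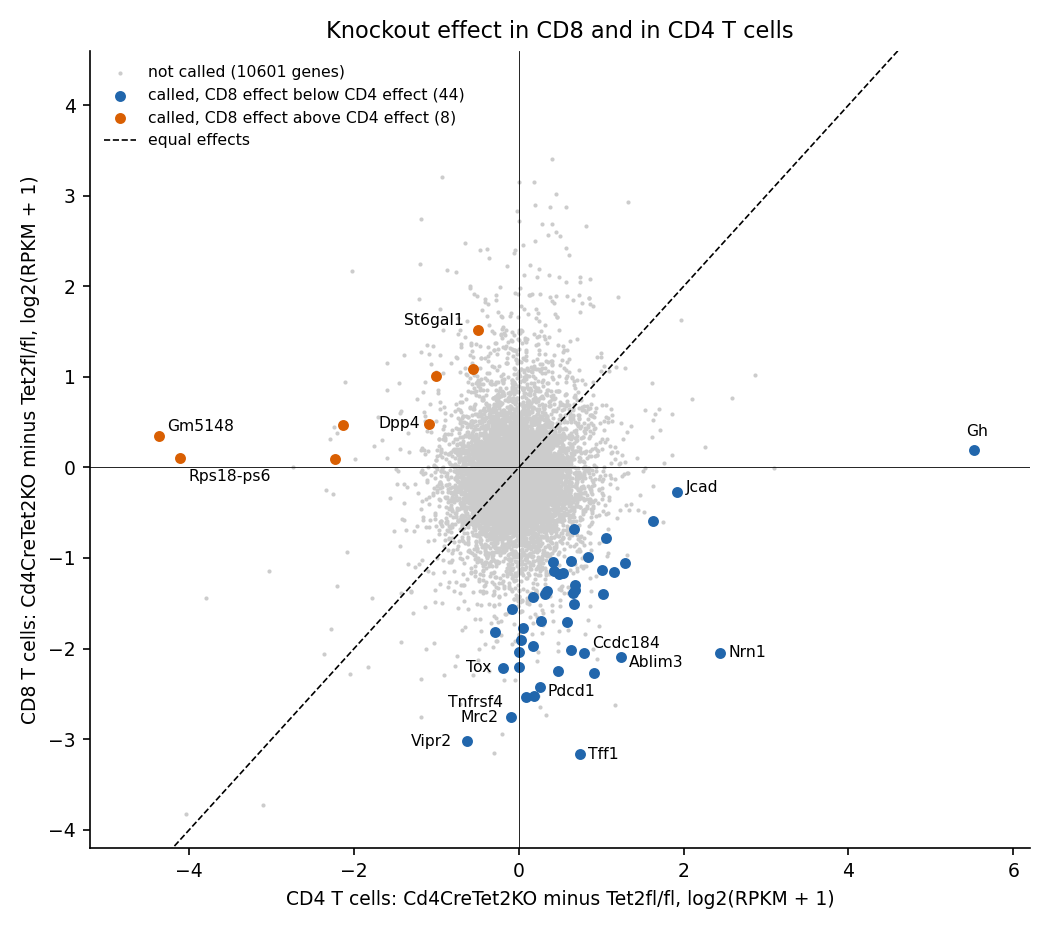
Knockout effect in CD8 cells (vertical) against CD4 cells (horizontal), each Cd4CreTet2KO minus Tet2fl/fl on the log2(RPKM + 1) scale; 1 point is 1 gene of the 10653 tested, and the dashed line marks equal effects. The 44 genes in blue lie under the line, most of them with a CD8 effect below -1 and a CD4 effect close to or above 0, and the 8 in orange lie above it.

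Tox, the chromosome 4 gene for the transcription factor that drives and holds the exhausted state, was among the genes of smallest p. Tox was at 8.52, 5.36, 5.70 and 6.61 RPKM in CD8 Cd4CreTet2KO, against 44.5, 25.1 and 33.7 RPKM in CD8 Tet2fl/fl libraries. In CD4 cells Tox was at 13.1, 14.9 and 11 RPKM in Cd4CreTet2KO, against 13.9, 18.3 and 12.8 RPKM in Tet2fl/fl libraries. All CD8 knockout libraries were low and far from their controls, and the CD4 groups overlapped. The CD8 effect was -2.21 and the CD4 effect -0.19, an interaction of -2.02 ± 0.32 (SE) with an adjusted p of 0.0168. Without CD8 Cd4CreTet2KO replicates 1 and 2 it was -2.09 (adjusted p 0.0272), and among fits without 1 library the call was lost without CD8 Tet2fl/fl replicate 1 or CD4 Cd4CreTet2KO replicate 2 (adjusted p up to 0.0622). It was also lost with all 19 libraries (0.248) and in the 10 libraries of the 5 animals with both cell types, where animal as a fixed term gave -1.99 (0.065). The adjusted p ran from 5.02e-08 to 0.248 over the 27 other settings.

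Among inhibitory receptors, Pdcd1 on chromosome 1, which encodes the checkpoint receptor PD-1, was the called member. Pdcd1 was at 27.8, 9.08, 13.4 and 38.4 RPKM in CD8 Cd4CreTet2KO, against 127, 91.5 and 105 RPKM in CD8 Tet2fl/fl libraries. In CD4 cells Pdcd1 was at 39.2, 59.0 and 37.8 RPKM in Cd4CreTet2KO, against 46.4, 34.6 and 31.8 RPKM in Tet2fl/fl libraries. The CD8 knockout libraries varied among themselves, yet all were below the controls, while the CD4 groups overlapped. The interaction was -2.67 ± 0.53 (SE; adjusted p 0.0425), and it stayed under the threshold in 2 of the 13 fits that left out 1 library, those without CD8 Cd4CreTet2KO replicate 1 or 4 (adjusted p up to 0.149 in the others). Without CD8 Cd4CreTet2KO replicates 1 and 2 it was -2.43 (adjusted p 0.0575), and with animal as a fixed term -2.23 (0.0521), within 0.000102 to 0.276 over its alternatives. Havcr2, which encodes the inhibitory receptor TIM-3, had 29.7, 8.81, 5.68 and 17.0 RPKM in CD8 Cd4CreTet2KO, against 79.0, 43.7 and 46.7 RPKM in CD8 Tet2fl/fl libraries. In CD4 cells Havcr2 had 8.62, 17.5 and 10.3 RPKM in Cd4CreTet2KO, against 9.53, 4.84 and 4.03 RPKM in Tet2fl/fl libraries. Its interaction of -2.90 ± 0.64 missed the threshold (adjusted p 0.0669) and passed it with animal as a random block (0.0365) or a fixed term (0.0119), within 0.000386 to 0.383 over its alternatives. Havcr2 passed it in 5 of 27 alternatives. Of the 16 inhibitory receptor genes tested, 8 had an unadjusted p under 0.05 with a lower CD8 effect and 1 with a higher one, with a median interaction of -0.94 against -0.09 for all genes. The third of the named members, Cd200r1, had an interaction of -1.64 and was not called.

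Of the TNF receptor family members that costimulate T cells, Tnfrsf4 and Tnfrsf9 had a called interaction. Tnfrsf4 (OX40) was at 7.99, 1.86, 5.99 and 9.77 RPKM in CD8 Cd4CreTet2KO, against 43.9, 36.9 and 32.7 RPKM in CD8 Tet2fl/fl libraries. In CD4 cells Tnfrsf4 was at 144, 177 and 166 RPKM in Cd4CreTet2KO, against 164, 158 and 135 RPKM in Tet2fl/fl libraries. Levels in CD4 cells were thus high in every library and overlapped between genotypes, and levels in CD8 knockout cells were the lowest of the 4 groups. Tnfrsf9 (4-1BB), an activation-induced receptor, was at 15.2, 2.60, 6.85 and 11.3 RPKM in CD8 Cd4CreTet2KO, against 43.7, 30.0 and 49.5 RPKM in CD8 Tet2fl/fl libraries. In CD4 cells Tnfrsf9 was at 34.4, 37.0 and 41.9 RPKM in Cd4CreTet2KO, against 28.8, 24.9 and 26.6 RPKM in Tet2fl/fl libraries. Here the genotypes did not overlap in either cell type and lay in opposite orders. The interactions were -2.63 ± 0.48 for Tnfrsf4 (adjusted p 0.0272) and -2.73 ± 0.54 for Tnfrsf9 (adjusted p 0.0425), and both were called without CD8 Cd4CreTet2KO replicates 1 and 2 (-2.24 and -2.55, adjusted p 0.00628 each). Both kept the call without CD8 Cd4CreTet2KO replicate 1, 2 or 4, and Tnfrsf4 also without CD4 Tet2fl/fl replicate 1, and lost it without any other single library (adjusted p up to 0.111 for Tnfrsf4 and 0.144 for Tnfrsf9). Both also lost it with a pseudocount of 0.1 (0.0533 and 0.0661), without a filter (0.114 and 0.148) and with all 19 libraries (0.791 and 0.41). Tnfrsf9 also lost it in edgeR (0.0619). Of 27 alternatives, 15 kept the call for Tnfrsf4 and 13 for Tnfrsf9. Tnfrsf18 (GITR) had an interaction of -1.44 ± 0.34 and was not called (adjusted p 0.0829).

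**Figure D3:**
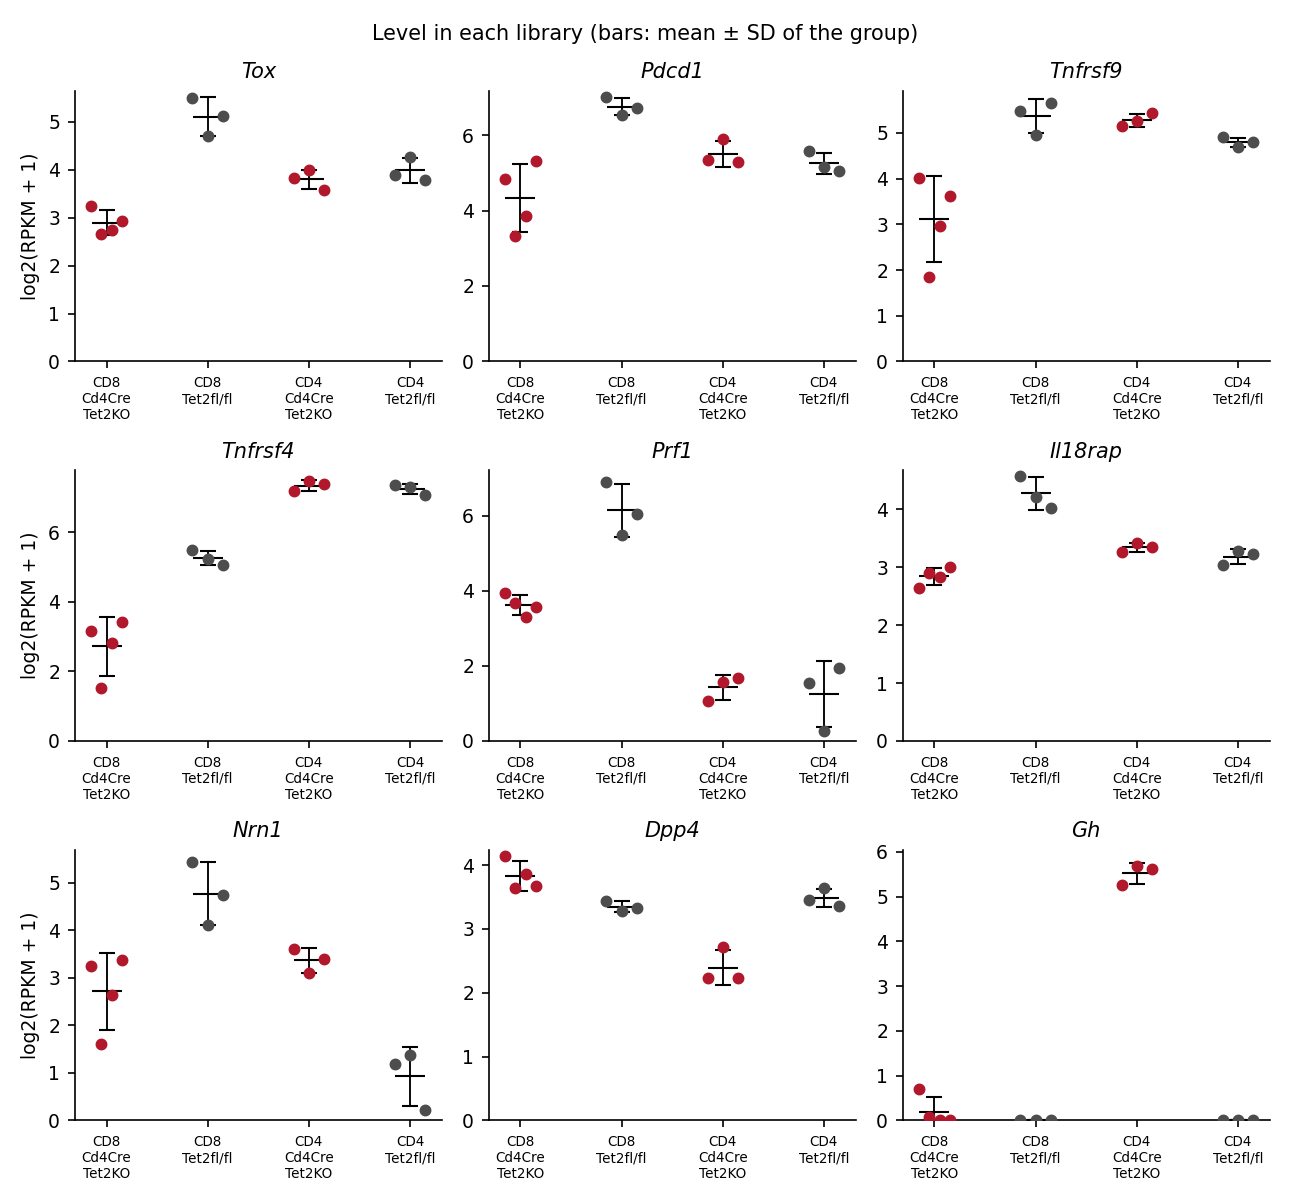
Level of 9 genes with a called interaction in each of the 13 libraries, log2(RPKM + 1), by cell type and genotype, red for Cd4CreTet2KO and grey for Tet2fl/fl; 1 point is 1 library and bars are the group mean ± SD (n = 4 for CD8 Cd4CreTet2KO and 3 for each other group). For Tox, Pdcd1, Tnfrsf9, Tnfrsf4, Prf1, Il18rap and Nrn1 the CD8 Cd4CreTet2KO libraries lie below all CD8 controls, and Gh is high in the 3 CD4 Cd4CreTet2KO libraries alone.

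Of the genes for killing, Prf1 on chromosome 10, which encodes the pore-forming protein perforin, had the called interaction. Prf1 was at 14.5, 11.7, 8.88 and 10.8 RPKM in CD8 Cd4CreTet2KO, against 117, 44.3 and 65.1 RPKM in CD8 Tet2fl/fl libraries. In CD4 cells Prf1 was at 1.08, 1.95 and 2.20 RPKM in Cd4CreTet2KO, against 1.89, 0.206 and 2.87 RPKM in Tet2fl/fl libraries. The CD8 groups did not overlap and the CD4 groups overlapped at levels where the pseudocount of 1 shrinks any difference. The interaction was -2.70 ± 0.54 (SE; adjusted p 0.0425), and -2.89 with an adjusted p of 0.0723 without CD8 Cd4CreTet2KO replicates 1 and 2. The call held without CD8 Cd4CreTet2KO replicate 1 or 4, CD8 Tet2fl/fl replicate 2 or CD4 Tet2fl/fl replicate 3, and not without any other single library (adjusted p up to 0.149). It was also lost with a pseudocount of 0.1 (adjusted p 0.154) and on reads in edgeR (0.311), DESeq2 (0.131) and voom (0.211), with a range of 0.024 to 0.428 over its alternatives. Of 17 cytotoxic effector genes tested of 22 listed, 5 had an unadjusted p under 0.05 with a lower CD8 effect, among them the chemokine receptor Cx3cr1 (-2.16) and the granule protein Nkg7 (-0.80), and 1 with a higher one. Sytl2, a Rab27-binding protein of secretory vesicles, was called at -1.83 ± 0.29 (adjusted p 0.0171), but not without CD8 Cd4CreTet2KO replicates 1 and 2 (0.0568) or with animal as a fixed term (0.0824), within 3.79e-07 to 0.516 over its alternatives. Sytl2 was at 5.33, 5.17, 5.04 and 7.76 RPKM in CD8 Cd4CreTet2KO, against 13.1, 9.43 and 15.3 RPKM in CD8 Tet2fl/fl libraries. In CD4 cells it was at 15.8, 14.6 and 14.9 RPKM in Cd4CreTet2KO, against 9.56, 7.21 and 7.41 RPKM in Tet2fl/fl libraries. The genotypes did not overlap in either cell type and lay in opposite orders.

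Il18rap encodes the accessory chain of the receptor for interleukin-18, a cytokine that drives interferon gamma production. Il18rap was at 5.26, 6.42, 6.07 and 7.04 RPKM in CD8 Cd4CreTet2KO, against 22.9, 17.5 and 15.2 RPKM in CD8 Tet2fl/fl libraries. In CD4 cells Il18rap was at 8.61, 9.70 and 9.23 RPKM in Cd4CreTet2KO, against 7.22, 8.69 and 8.34 RPKM in Tet2fl/fl libraries. The CD8 knockout libraries were tightly grouped under the controls, and the CD4 groups overlapped. The interaction was -1.60 ± 0.26 (SE; adjusted p 0.018), and 10 of 13 fits that left out 1 library kept the call; it was lost without CD8 Tet2fl/fl replicate 1 or CD4 Cd4CreTet2KO replicate 2 or 3 (adjusted p up to 0.0733). It was also lost without CD8 Cd4CreTet2KO replicates 1 and 2 (0.0568) and with animal as a fixed term (0.111), within 0.000133 to 0.22 over its alternatives. Vipr2, a receptor for vasoactive intestinal peptide, was at 2.65, 0.456, 1.46 and 0.746 RPKM in CD8 Cd4CreTet2KO, against 15.8, 22.4 and 13.3 RPKM in CD8 Tet2fl/fl libraries, and the CD4 libraries were at 0.678 to 1.16 RPKM in Cd4CreTet2KO, against 1.2 to 2.46 RPKM in Tet2fl/fl. The knockout libraries lay below their controls in both cell types, by more in CD8 cells. The Vipr2 interaction was -2.40 ± 0.45 (adjusted p 0.0355), and 4 of 13 fits that left out 1 library kept the call. The Vipr2 call held without CD8 Cd4CreTet2KO replicates 1 and 2 (0.036) and in DESeq2 (0.0128). It was lost with a pseudocount of 0.1 (0.118), in edgeR (0.0832) and in voom (0.107). It was also lost with all 19 libraries (0.248) and with animal as a fixed term (0.0521). Crtam, an adhesion receptor of activated CD8 cells, was at 3.90 to 5.32 RPKM in CD8 Cd4CreTet2KO, against 15.4 to 15.9 RPKM in CD8 Tet2fl/fl libraries and at most 0.196 RPKM in CD4 libraries, so its interaction of -1.49 ± 0.29 (adjusted p 0.0383) is set almost wholly by the CD8 cells. The Crtam call was lost without CD8 Cd4CreTet2KO replicates 1 and 2 (0.102), with size factors and in all 3 count tools, of which voom turned the sign to 1.03, within 0.024 to 0.867 over its alternatives. Lilrb4b, an inhibitory receptor of the leukocyte immunoglobulin-like family, was at 13.7, 12.0, 7.12 and 13.7 RPKM in CD8 Cd4CreTet2KO, against 29.9, 28.9 and 35.0 RPKM in CD8 Tet2fl/fl libraries. In CD4 cells it was at 15.3, 24.6 and 17.4 RPKM in Cd4CreTet2KO, against 11.3, 10.6 and 12.7 RPKM in Tet2fl/fl libraries, the opposite order without overlap. Its interaction was -2.05 ± 0.32 (adjusted p 0.0168), and reads may be shared with its near-identical neighbour Lilrb4a. The unnamed model Gm49339, whose range covers Lilrb4b on the same strand, was also called (-1.67, adjusted p 0.0262). These calls come from overlapping models and are not separate findings.

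The interaction of smallest p among named T cell surface genes was that of Nrn1 on chromosome 13, which encodes neuritin, a small protein anchored to the outer membrane and first known from neurons. Nrn1 was at 8.47, 2.03, 5.26 and 9.31 RPKM in CD8 Cd4CreTet2KO, against 42.3, 16.3 and 25.7 RPKM in CD8 Tet2fl/fl libraries. In CD4 cells Nrn1 was at 11.1, 7.52 and 9.55 RPKM in Cd4CreTet2KO, against 1.27, 1.60 and 0.161 RPKM in Tet2fl/fl libraries. The genotypes lay in opposite orders without overlap in both cell types. The interaction was -4.49 ± 0.60 (SE; adjusted p 0.00533), the sum of a CD8 effect of -2.05 and a CD4 effect of 2.44 taken with the opposite sign, and it stayed called in every fit that left out 1 library (adjusted p up to 0.0296). Without CD8 Cd4CreTet2KO replicates 1 and 2 it was -4.19 (adjusted p 0.00628).

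Ccdc184, a coiled-coil protein, had a similar order at lower levels. It was at 0.0453, 0.0398, 0.263 and 0.495 RPKM in CD8 Cd4CreTet2KO, against 5.95, 3.35 and 3.02 RPKM in CD8 Tet2fl/fl libraries, and in CD4 cells at 4.84, 3.15 and 3.37 RPKM in Cd4CreTet2KO, against 1.95, 1.21 and 2.14 RPKM in Tet2fl/fl libraries. Ablim3, an actin-binding LIM protein, was at 0.282, 0.332, 0.411 and 1.63 RPKM in CD8 Cd4CreTet2KO, against 7.69, 4.04 and 6.17 RPKM in CD8 Tet2fl/fl libraries, and in CD4 cells at 2.91, 6.38 and 7.06 RPKM in Cd4CreTet2KO, against 1.80, 1.54 and 1.5 RPKM in Tet2fl/fl libraries. Their interactions were -2.84 ± 0.39 (adjusted p 0.00533) and -3.34 ± 0.46 (adjusted p 0.00581). Neither gene's genotypes overlapped in either cell type. Without CD8 Cd4CreTet2KO replicates 1 and 2 the interactions were -2.64 for Ccdc184 (adjusted p 0.0272) and -3.06 for Ablim3 (adjusted p 0.0298). With animal as a fixed term the Ccdc184 call was lost (-2.74, adjusted p 0.0536).

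Among the called names, 4 encode adhesion, guidance or matrix proteins. Itgav, the alpha chain of the integrins that bind vitronectin, was at 10.2, 5.71, 4.34 and 10.3 RPKM in CD8 Cd4CreTet2KO, against 24.5, 19.9 and 23.1 RPKM in CD8 Tet2fl/fl libraries. Its interaction was -2.18 ± 0.43 (adjusted p 0.0405), with overlapping CD4 groups at 20.7 to 42.3 RPKM in Cd4CreTet2KO and 13 to 21.4 RPKM in Tet2fl/fl libraries. Lamc1, a laminin chain, had an interaction of -2.04 ± 0.35 and Sema6d, a semaphorin, one of -3.17 ± 0.54 (adjusted p 0.0203 each). Mrc2, a collagen receptor, was at 0.123 to 1.89 RPKM in CD8 Cd4CreTet2KO, against 8.74 to 14.3 RPKM in CD8 Tet2fl/fl libraries, and at most 0.554 RPKM in CD4 cells of either genotype, with an interaction of -2.67 ± 0.46 (adjusted p 0.0203). Mrc2 kept its call in 13 of 27 alternatives and lost it with a pseudocount of 0.1 (0.2), in edgeR (0.546), DESeq2 (0.53) and voom (0.307) and with no filter (0.0749), over a range of 0.01 to 0.546. Without CD8 Cd4CreTet2KO replicates 1 and 2 the call was lost for Mrc2 (0.0569), Itgav (0.0647) and Lamc1 (0.0641) and kept for Sema6d (0.0272). Of 13 fits that left out 1 library, 2 kept the call for Itgav, 7 for Mrc2 and Sema6d and 9 for Lamc1. With all 19 libraries it was lost for Itgav (0.289), Lamc1 (0.292) and Sema6d (0.261). Of 27 alternatives, Itgav kept its call in 10, Lamc1 in 18 and Sema6d in 19. Lamc1 and Sema6d also differed without overlap in both cell types in opposite orders, whereas Mrc2 was near 0 throughout CD4 cells. Of the 18 integrin and tissue retention genes tested, 3 had an unadjusted p under 0.05 in each direction, with a median interaction of -0.15.

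The other named genes with a lower CD8 effect had interactions of -1.58 to -3.91. They were Bspry (-2.42 ± 0.37, adjusted p 0.013), Zfp52 (-1.69), Mdfic (-1.71), Eea1 (-1.94), an endosome tether, Jcad (-2.20), a junction protein, and Mapkapk3 (-1.67), a kinase activated by p38. Cib2 (-2.65), Atxn1 (-1.58), Slc16a11 (-2.14), a member of the monocarboxylate transporter family, Pcyt1a (-2.30), an enzyme of phosphatidylcholine synthesis, and the trefoil peptide Tff1 (-3.91 ± 0.77) completed the group. Their adjusted p ran from 0.013 for Bspry to 0.042 for Tff1. Of 27 alternatives, the call held in 22 for Bspry, 18 for Eea1, 17 for Zfp52 and Mdfic and 14 for Mapkapk3. It held in 12 for Cib2, 11 for Pcyt1a and Tff1 and 10 for Atxn1. For Jcad it held in 12 of 23 and for Slc16a11 in 8 of 24. Tff1 kept its call in 3 of 13 fits that left out 1 library and lost it in edgeR (adjusted p 0.116). Jcad differed from most of these genes in its layout. In CD4 cells it was at 4.19, 2.39 and 3.94 RPKM in Cd4CreTet2KO, against 0.375, 0.157 and 0 RPKM in Tet2fl/fl libraries. Its CD8 groups overlapped below 1 RPKM. Jcad passed the filter on low values only through the CD4 Cd4CreTet2KO libraries, so this layout was in part set by the filter. Slc16a11 passed it only through the CD8 Tet2fl/fl libraries.

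Dpp4 and St6gal1 were the named genes with a higher knockout effect in CD8 cells. Dpp4 (CD26, a surface peptidase that trims chemokines) was at 16.7, 11.4, 13.5 and 11.8 RPKM in CD8 Cd4CreTet2KO, against 9.84, 8.69 and 9.06 RPKM in CD8 Tet2fl/fl libraries. In CD4 cells Dpp4 was at 3.70, 5.57 and 3.71 RPKM in Cd4CreTet2KO, against 9.97, 11.4 and 9.23 RPKM in Tet2fl/fl libraries. The genotypes lay in opposite orders without overlap in both cell types, and the interaction was 1.57 ± 0.27 (SE; adjusted p 0.0229). St6gal1, which caps N-glycans with sialic acid, was at 5.18, 6.21, 8.08 and 5.13 RPKM in CD8 Cd4CreTet2KO, against 1.36, 1.59 and 1.45 RPKM in CD8 Tet2fl/fl libraries. In CD4 cells it was at 7.86, 3.80 and 5.97 RPKM in Cd4CreTet2KO, against 6.43, 8.48 and 10.8 RPKM in Tet2fl/fl libraries. The CD8 knockout libraries were all high and the CD4 groups overlapped, with an interaction of 2.02 ± 0.36 (adjusted p 0.023). For both genes, 7 of 13 fits that left out 1 library kept the call; it was lost for both without CD8 Tet2fl/fl replicate 1 or 3 or CD4 Cd4CreTet2KO replicate 3 (adjusted p up to 0.086). The adjusted p without CD8 Cd4CreTet2KO replicates 1 and 2 was 0.0579 for Dpp4 and 0.0587 for St6gal1, and with animal as a fixed term 0.069 and 0.0852. Over all alternatives it ran from 1.81e-06 to 0.292 for Dpp4 and from 9.75e-07 to 0.515 for St6gal1.

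Several transcripts separated the groups almost as presence and absence. Gh, growth hormone, was at 37.2, 50.7 and 48.5 RPKM in CD4 Cd4CreTet2KO libraries and listed at 0 in all 6 Tet2fl/fl libraries of both cell types. In CD8 Cd4CreTet2KO libraries it was at 0.626, 0.0589, 0 and 0 RPKM, and the replicates above 0 are also those with the higher Cd4 values. Gh passed the filter on low values only through the CD4 Cd4CreTet2KO libraries, so this layout was in part set by the filter. The Gh interaction of -5.33 ± 0.35 (adjusted p 1.67e-06) also depends on the pseudocount, since the controls are at 0. On reads Gh was not called by edgeR (adjusted p 1), DESeq2 (0.289) or voom (0.0564), within 7.26e-08 to 1 over its alternatives. The unnamed model Gm5148, chosen after its values were seen, was at 2.23, 0.66 and 3.09 RPKM in CD4 Cd4CreTet2KO, against 58.3, 62.1 and 50.3 RPKM in CD4 Tet2fl/fl libraries. In CD8 cells it was at 53.5, 39.7, 97.8 and 73.4 RPKM in Cd4CreTet2KO, against 50.5, 61.9 and 37.1 RPKM in Tet2fl/fl libraries, an interaction of 4.72 ± 0.47 (adjusted p 0.000244). Rps18-ps6, named as a ribosomal protein pseudogene but annotated as protein coding, was also chosen after its values were seen. It had the same layout: 7.54, 3.69 and 1.54 RPKM in CD4 Cd4CreTet2KO, against 74.7, 60.9 and 111 RPKM in CD4 Tet2fl/fl libraries. In CD8 cells it was at 55.2 to 169 RPKM in Cd4CreTet2KO, against 81.1 to 98.5 RPKM in Tet2fl/fl libraries. Its interaction was 4.21 ± 0.57 (adjusted p 0.00533). Both may share reads with similar copies elsewhere in the genome, which was not examined, so their values are uncertain.

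Lists of genes with a common role are described by counts and medians beside the background of all genes tested, at an unadjusted p under 0.05 (8.05% lower, 4.26% higher). Of 19 regulatory T cell genes tested, 13 had a lower and none a higher CD8 effect, with a median interaction of -1.43 made of a median CD8 effect of -1.34 and a median CD4 effect of 0.10. Tnfrsf4 and Tnfrsf9 were called, and the list shares these and Tnfrsf18 with the costimulation list. Of its other lower members, Ctla4 and Tigit are also inhibitory receptors, Ikzf2 an exhaustion-associated regulator, Il2ra and Il1rl1 cytokine receptors, Ccr8 a chemokine receptor and Itgb8 an integrin in the lists used here, so the counts of these lists are not independent. Capg, an actin-capping protein, was the third by p (-1.54). Foxp3, the defining factor of regulatory cells and outside the naming rule, had an interaction of -0.69 with an unadjusted p of 0.0948. Of 16 exhaustion-associated regulators tested, 6 had a lower and none a higher CD8 effect; after Tox, these include Prdm1 (-1.63), which encodes the repressor BLIMP-1, and Ikzf2 (-1.43), which encodes Helios. Of 13 TNF receptor family costimulation genes, 7 had a lower and 2 a higher effect. Of 9 T cell chemokines, 3 had a lower and none a higher effect, and they were Ccl3 (-1.54), Ccl4 (-1.48) and Ccl5 (-0.71).

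Naive and memory genes lay the other way. Of the 20 tested, 12 had an unadjusted p under 0.05 with a higher CD8 effect and none with a lower one, the median interaction was 1.25, and none was called. Tcf7, the gene for TCF-1, was at 62.3, 114, 181 and 75.7 RPKM in CD8 Cd4CreTet2KO, against 25.6, 44.8 and 34.6 RPKM in CD8 Tet2fl/fl libraries. In CD4 cells Tcf7 was at 118, 38.3 and 70.7 RPKM in Cd4CreTet2KO, against 104, 120 and 177 RPKM in Tet2fl/fl libraries. The CD8 groups did not overlap and the CD4 groups overlapped. Its interaction was 2.43 ± 0.56 (adjusted p 0.0785). Klf3, a zinc finger factor, was at 12.3, 13.2, 18 and 8.43 RPKM in CD8 Cd4CreTet2KO, against 1.77, 4.22 and 2.17 RPKM in CD8 Tet2fl/fl libraries, and it overlapped between genotypes in CD4 cells. The Klf3 interaction was 1.96 ± 0.43 (adjusted p 0.0621), and that of Klf2, which sustains the lymph node homing programme, was 2.02 ± 0.47 (adjusted p 0.0792). With animal as a random block these 3 genes passed the threshold, with adjusted p of 0.0486 for Tcf7, 0.0365 for Klf3 and 0.0484 for Klf2. With animal as a fixed term Tcf7 (0.014) and Klf2 (0.011) passed it and Klf3 did not. Over its alternatives the adjusted p ran from 0.014 to 0.525 for Tcf7, from 0.000539 to 0.608 for Klf3 and from 0.000905 to 0.74 for Klf2. It was under 0.05 in 5 of 27 alternatives for Tcf7 and in 6 of 27 each for Klf3 and Klf2.

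Without CD8 Cd4CreTet2KO replicates 1 and 2, 7.14% of 10379 genes were lower and 3.63% higher. Regulatory T cell genes then had 13 lower and none higher, naive and memory genes 13 higher and none lower, inhibitory receptors 9 lower and 1 higher, exhaustion-associated regulators 7 lower and 1 higher, and costimulation genes 6 lower and 1 higher. T cell chemokines had 1 lower of 8 tested, and 1 of 9 with RPKM divided by size factors. Other lists moved with those libraries. Of 10 MHC class II genes, 9 had an unadjusted p under 0.05 with a higher CD8 effect, and 3 without those libraries, while the median interaction was 2.10 and 1.24. Of 15 macrophage and monocyte markers tested of 18, 4 were higher with those libraries, and none of 11 tested without them, where the median interaction was 0.32 in place of 1.78. Dendritic cell markers numbered 5 of 13 and then 2, and type I interferon response genes 6 of 24 and then 3 of 22. MHC class II genes are therefore given with their sums per library: 2940, 1240, 342 and 694 RPKM in CD8 Cd4CreTet2KO, against 69.2 to 404 RPKM in CD8 Tet2fl/fl libraries.

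**Figure D4:**
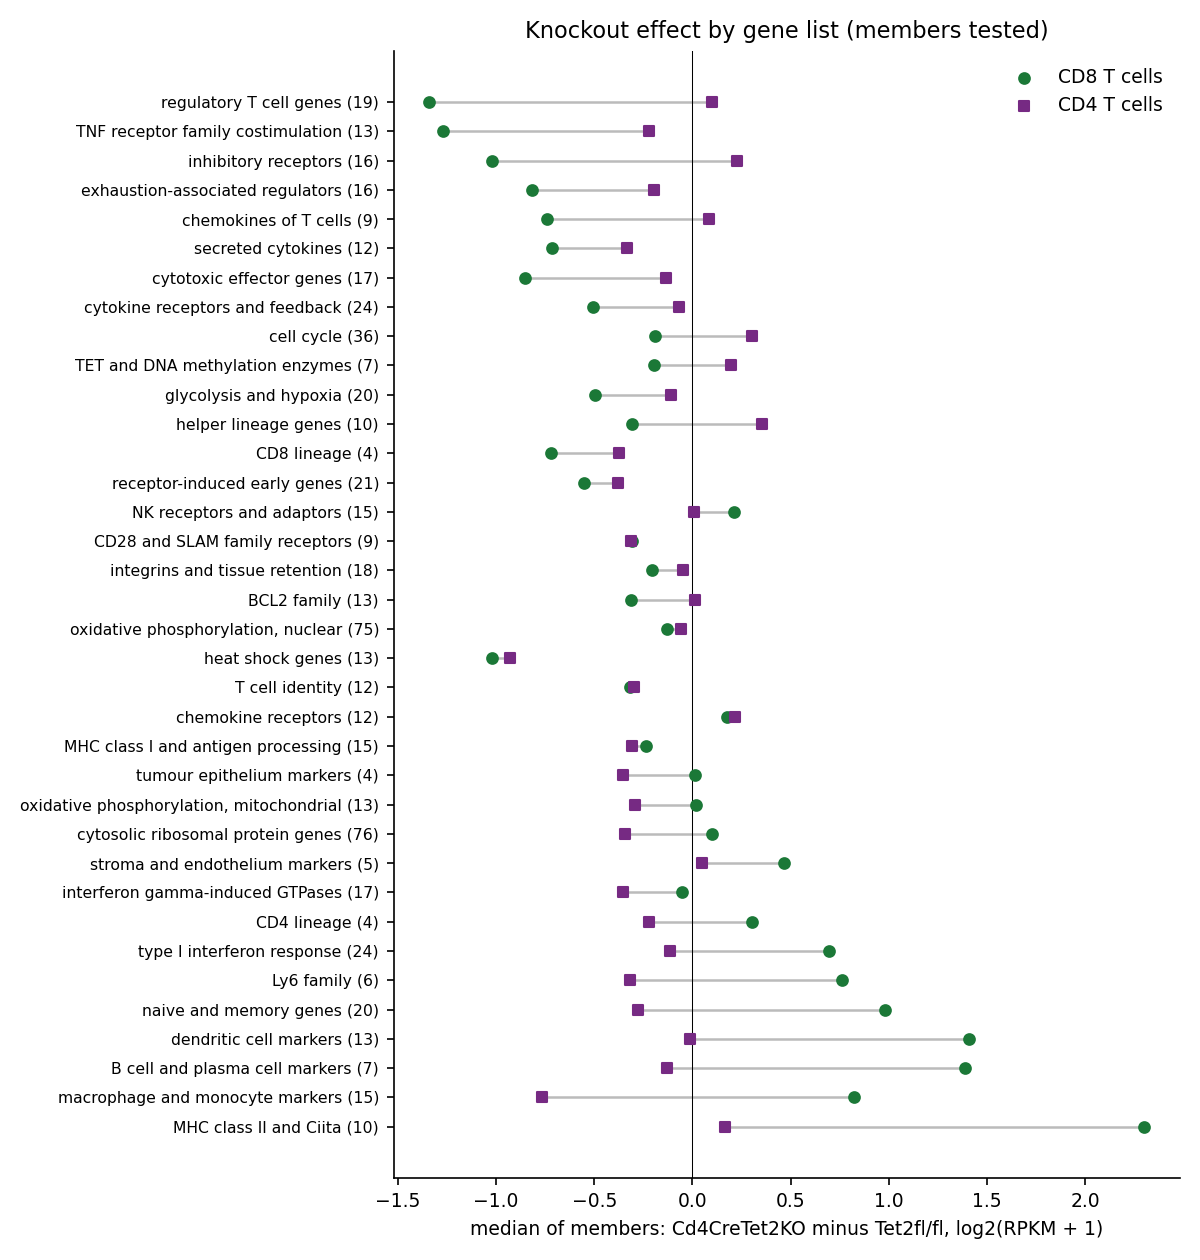
Median knockout effect of the tested members of each gene list (number in brackets) in CD8 cells (green circles) and CD4 cells (purple squares), Cd4CreTet2KO minus Tet2fl/fl on the log2(RPKM + 1) scale; lists are ordered by their median interaction. The effects lie farthest apart for regulatory T cell, costimulation and inhibitory receptor genes at the top, with medians in CD8 cells of -1.34, -1.27 and -1.02, and for MHC class II and cell type marker lists at the bottom, while heat shock genes have like medians in both.

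Heat shock genes were at low levels in the knockout libraries of both cell types. They had a median effect of -1.02 in CD8 and -0.93 in CD4 cells, and 1 of 13 had an interaction with an unadjusted p under 0.05. Hspa1a, an inducible chaperone, was at 180, 217, 177 and 217 RPKM in CD8 Cd4CreTet2KO, against 822, 724 and 525 RPKM in CD8 Tet2fl/fl libraries. In CD4 cells Hspa1a was at 128, 163 and 213 RPKM in Cd4CreTet2KO, against 958, 948 and 573 RPKM in Tet2fl/fl libraries. The knockout libraries were low in both cell types, without overlap, and the interaction was 0.50, not called. Of 36 cell cycle genes, 35 had an interaction below 0, against 57.5% of all genes tested, but 5 had an unadjusted p under 0.05, and the median was -0.53.

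Within animals, the CD8 library can be set against the CD4 library of the same mouse, here in 2 Cd4CreTet2KO and 3 Tet2fl/fl animals. All 44 genes with a lower CD8 effect had a lower CD8 minus CD4 difference in both knockout animals than in every control animal, against 19.2% of all genes tested, and all 8 with a higher effect had a higher one, against 9.45%; these animals are part of the libraries that chose the genes. For Tox the difference was -1.08 and -0.66 in the knockout animals, against 1.61, 0.43 and 1.33 in the controls. Its sign thus differed between genotypes, as it also did for other called genes, among them Nrn1, Ablim3 and Ccdc184. The sign rests on CD8 and CD4 tables that were normalized separately. For Pdcd1 it was -1.49 and 0.02 in the knockout animals, against 1.43, 1.38 and 1.69 in the controls. For Prf1 it was 2.25 and 1.89 in the knockout animals, against 5.36, 5.23 and 4.10 in the controls. Perforin thus stayed higher in CD8 than in CD4 cells in every animal, by a smaller margin in the knockouts. For Dpp4 it was 1.62 and 1.44 in the knockout animals, against -0.02, -0.36 and -0.02 in the controls.

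**Figure D5:**
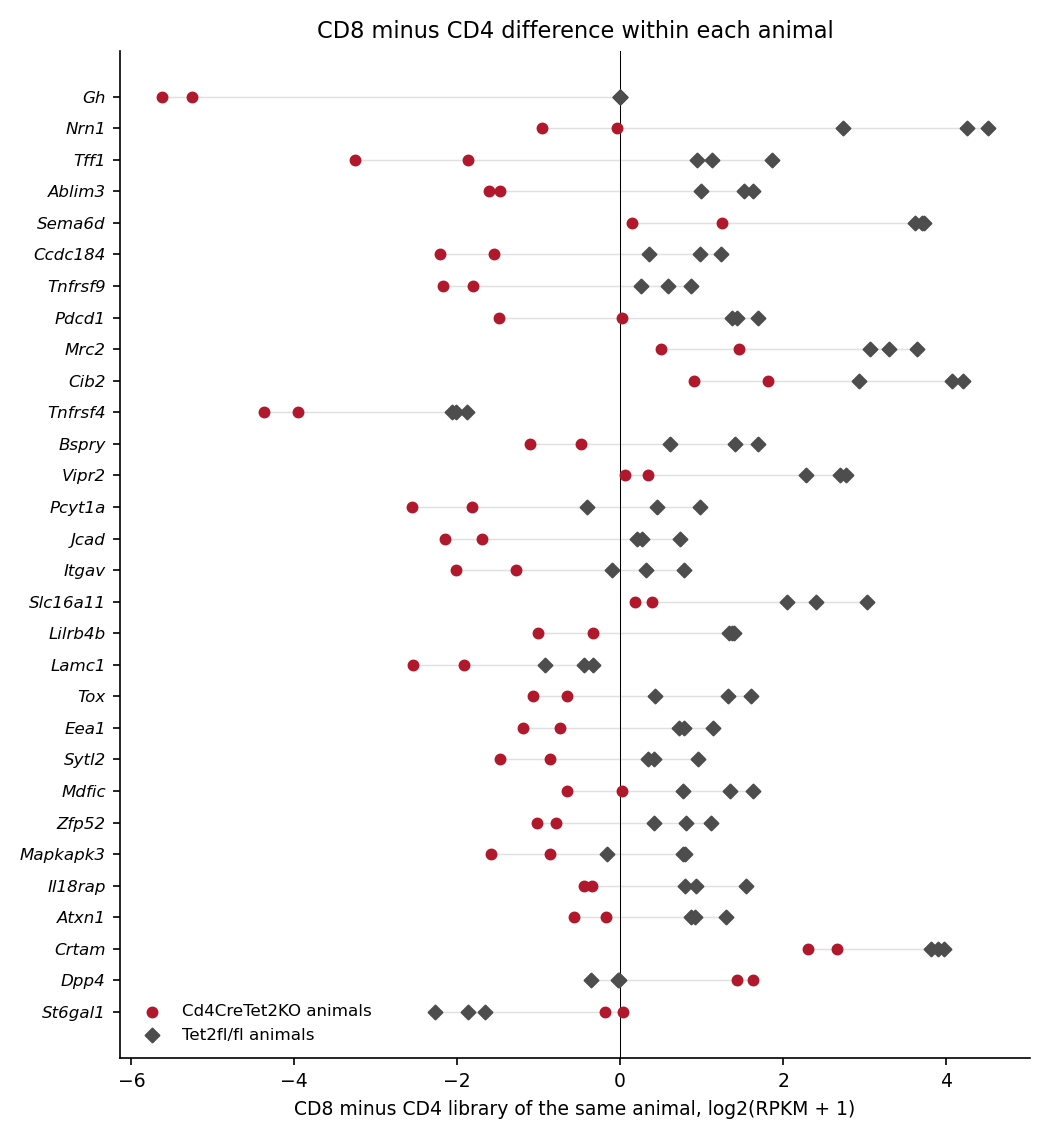
CD8 minus CD4 difference within each animal, log2(RPKM + 1), for the 30 called genes named by smallest p; red circles are the 2 Cd4CreTet2KO animals and grey diamonds the 3 Tet2fl/fl animals. Red lies left of grey for 28 of these genes and right of it for Dpp4 and St6gal1 at the bottom. The sign differs between genotypes for Tox and for others, among them Nrn1, Ablim3 and Ccdc184.

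The same interaction can be formed for Vav1CreTet2KO mice, which share the 6 control libraries and were fitted with all 19 libraries, 1 of them shallow (707866 reads), so only values are set side by side. For Tox the interaction was -2.02 with Cd4Cre and -1.96 with Vav1Cre, for Nrn1 -4.49 and -4.37, for Prf1 -2.70 and -2.82, and for Tnfrsf4 -2.63 and -3.40. For Dpp4 it was 1.57 with Cd4Cre and 1.49 with Vav1Cre. For Pdcd1 it was -2.67 with Cd4Cre and -0.49 with Vav1Cre, and for Sytl2 -1.83 and -0.14. The differences between the Cre lines were not tested.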

How the data were processed

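The authors deposited 1 table per cell type, each with 25639 genes. Per the file headers, the CD4 table holds read counts and RPKM per library and the CD8 table RPKM only. Per the labels' protocols, total RNA of sorted cells was made into stranded libraries with a low-input kit and sequenced as read pairs. The submitters' processing notes name the builds GRCm38 and mm10; the aligner, the counter and the build of the tables' coordinates were not given in the sources used here, so no table coordinates are printed. Of the per-sample columns 28 were read and 18 were not used.

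RPKM of the deposited tables was joined by gene, and a gene was kept when 3 or more of the 13 libraries reached 1 RPKM. log2(RPKM + 1) values, computed here from the authors' RPKM, were fitted with limma 3.58.1 in R 4.3.3 (1 mean per group, eBayes with trend), and p-values were adjusted by Benjamini-Hochberg over all genes tested. The tables were normalized separately by the authors; a factor common to all genes of a table cancels in each knockout effect apart from the pseudocount. Errors are standard errors of the fit unless SD is named. The p-values of the main fit measure the spread between libraries within a group, which are separate animals. That fit treats the CD8 and CD4 libraries of the same animal as independent. The CD8 reads used for depth, edgeR 4.0.16, DESeq2 1.42.0 and voom were recovered from RPKM and the gene lengths implied by the CD4 counts and RPKM: 100% of 134905 values lay within 0.01 of a whole number. These reads carry no molecular identifiers. The fit was tested on simulated data.

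Animal numbers in the labels tie the CD8 and CD4 libraries of 5 animals. The correlation of their deviations from the group means ran from 0.0286 to 0.0998 over those animals, and limma's consensus correlation was 0.112. Named genes are the called genes of smallest p, up to 30, with a mean log2(RPKM + 1) of at least 1 in some group, without unnamed models, pseudogenes and receptor segments, plus up to 3 members of each of 39 gene lists by smallest p, and Tet2, Cd4, Cd8a, Cd8b1 and Cd3e. The contrast, its genes and the lists were chosen with earlier results of these data known. Promoters are RefSeq sequences on GRCm38.p6. Alternatives were the pseudocount, the filters, all 19 libraries, a block for animal, size factors, the count tools, a robust fit, gene classes left out and each library left out.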

Additional observations from a re-analysis of the deposited data

Results flagged for a closer look

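The knockout effect differed between CD8 and CD4 cells, by limma's test of the interaction, for these named genes, given on the log2(RPKM + 1) scale. The largest were Gh (-5.33), Nrn1 (-4.49), Tff1 (-3.91), Ablim3 (-3.34), Sema6d (-3.17) and Ccdc184 (-2.84). Of these, Gh passed the filter only through the CD4 Cd4CreTet2KO libraries, and Tff1 kept its call in 11 of 27 alternatives. The receptors, regulators and effectors were Tnfrsf9 (-2.73), Prf1 (-2.70), Pdcd1 (-2.67), Tnfrsf4 (-2.63), Vipr2 (-2.40), Lilrb4b (-2.05), Tox (-2.02), Il18rap (-1.60) and Crtam (-1.49). Adhesion and matrix genes were Mrc2 (-2.67), Itgav (-2.18) and Lamc1 (-2.04). The others below 0 were Cib2 (-2.65), Bspry (-2.42), Pcyt1a (-2.30), Jcad (-2.20), Slc16a11 (-2.14), Eea1 (-1.94), Sytl2 (-1.83), Mdfic (-1.71), Zfp52 (-1.69), Mapkapk3 (-1.67) and Atxn1 (-1.58). Dpp4 (1.57) and St6gal1 (2.02) had a higher effect in CD8 cells.

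In the CD8 Cd4CreTet2KO group of 4 libraries, 1 library lay far from the other 3 for 8 of 135 genes examined, with a gap to the nearest library, as a share of the group's range, above Dixon's critical value for 4 samples. Chance gives about 1 in 20 groups. Replicate 4 was the far one for Ablim3 (gap over range 0.867), Sytl2 (0.876), Rora (0.876), Ly6c2 (0.838), Hba-a2 (0.845) and Rps29 (0.98). Replicate 1 was the far one for Gh (0.882) and replicate 2 for mt-Nd2 (0.941).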

How the results depend on the processing

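All 1387 values of the 52 called genes under the alternatives kept their sign except Crtam under voom with quality weights (1.03); the cause was not tested. The number of called genes moved far more. Against 52 (44 lower and 8 higher in CD8 cells), it was 33 with a pseudocount of 0.1 (26 lower), 21 without a filter (17 and 4), 7 with all 19 libraries (5 and 2) and 17 without CD8 Cd4CreTet2KO replicates 1 and 2 (14 and 3). On reads it was 81 in edgeR (27 higher), 389 in DESeq2 (180 and 209) and 133 in voom (100 and 33), over 14498 genes. With animal as a random replicate block 15 genes were higher and all 52 calls were held; with animal as a fixed block, in the 10 libraries of 5 animals, 31 were called (23 lower), 11 of them among the 52, against 6 (4 and 2) in those 10 libraries with no block, a fit chosen after seeing the data. Leaving out 1 library gave 6 to 89 called genes, 3 to 75 lower and 2 to 14 higher.

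Of the other genes examined, Cd8a (-0.50) was 0.69 with a pseudocount of 0.1, 3.07 in edgeR, 3.04 in DESeq2 and 1.92 in voom; the cause was not tested. S100a9 was -0.67 and Kdr -0.28 with the fixed animal block, and Kdr -0.28 also in those libraries with no block. Hba-a1 was 0.84 in both of these fits, 0.086 without CD8 Cd4CreTet2KO replicates 1 and 2, and -0.97 to 0.50 when 1 library was left out, and Cd8b1 was -0.33 to 0.48. None of these 5 genes was called.

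Groups held 3 or 4 animals, libraries held at least 8189300 reads on genes, and levels under 1 RPKM are compressed by the pseudocount. Replicate numbers alone pair nothing here; animal numbers do, and the random block changed no call among the 52.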
